A study of Drosophila melanogaster with 18 samples.

Results

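L-sorbose tastes sweet to flies but has little food value. The heads of 6 flies trained with an odor and sorbose (sorbose flies) were compared with the heads of 6 flies that met the odor without sugar (odor flies), out of 18 flies of Drosophila melanogaster in the series. The other 6 flies were trained with the odor and sucrose, a sugar with food value (sucrose flies). Each sample was the poly(A) RNA of a single head. The study describes all flies as starved before the odor was given and as female, names octanol as the odor and describes the odor flies as a control that received no sugar. The labels give no strain and no age. Sorbose and sucrose flies were collected 4 h after training, whereas the labels call the odor flies naive and give no time of collection for them. The effects of sweet taste, pairing with the odor, anything eaten after training and the time of collection therefore cannot be told apart in this comparison. Values were RPKM, read counts scaled to the length of the gene and the size of the library. The genes compared were those with a mean of at least 0.5 RPKM over the 12 flies, which were 11043 of 17559. Differences are sorbose minus odor on the scale of log2(RPKM + 0.5), given with their SE, and a gene was called at a limma adjusted p under 0.05.

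A fly without food draws on stored fat and on its own protein. Insulin signalling falls, the transcription factor FOXO enters the nucleus and turns on genes such as Thor, the kinase TOR is held back, and autophagy and the breakdown of amino acids supply fuel and precursors. When nutrients return, insulin and TOR signalling favour the making of ribosomes, and the fat body, which in the head surrounds the brain, stores lipid again and exports it in lipoproteins. Sweet taste and food value can be separated with a sugar such as sorbose. The lists of genes below were arranged around these processes, together with lists for stress, immunity, hormones and the nervous system. They were chosen with earlier results of these data known, so that their shares describe these flies and do not test the processes.

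Libraries held 57.8 ± 6.85 M reads in sorbose flies and 65.7 ± 7.53 M reads in odor flies (effective size, mean ± SD, n = 6 each), and did not differ at the 0.05 threshold (difference -7.97 M reads, two-sided exact permutation p = 0.0844). The odor flies were the more variable group. Along the first principal component, which held 45.6% of the variance, sorbose flies lay close together between -23.1 and -13.6. Odor flies 4 and 5 lay next to them at -12.5 and -8.14, while odor flies 2, 3, 6 and 1 reached 9.08, 23.1, 44.6 and 47.7. Counts of called genes are therefore also given without odor flies 1 and 6, a fit added after the data had been seen. Marker genes of neurons, glia and photoreceptors were all detected, and of 22 midgut marker genes 3 passed the filter. The summed RPKM of 12 photoreceptor markers was 16600 to 23215 in sorbose flies and 17163 to 22898 in odor flies. The summed RPKM of 11 fat body markers was 3929 to 12369 in sorbose flies (median 8339) and 3050 to 9781 in odor flies (median 4640), and the mean of the 9 that passed the filter was high in odor flies 4 and 5, which lay with the sorbose flies, and low in odor flies 1, 3 and 6. A head is a mixture of tissues, so that fewer cells of a type and less RNA per cell cannot be told apart.

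**Figure D1:**
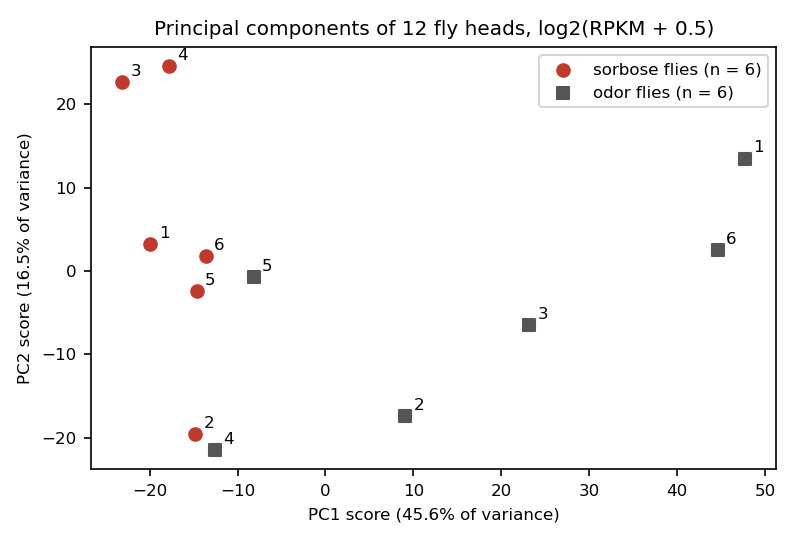
Scores of the 12 heads on the first (x axis) and second (y axis) principal components of log2(RPKM + 0.5), in sorbose flies (circles) and odor flies (squares), with the replicate number beside each point. Sorbose flies lie between -23.1 and -13.6 on the first component, while odor flies run from -12.5 to 47.7.

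Of the 11043 genes, 2006 (18.2%) were called, 1027 of them higher in sorbose flies (9.3%) and 979 lower (8.87%). The median absolute log2 difference of the called genes was 0.39, and 181 differed by at least 1. Before adjustment 3820 genes had a p under 0.05. No overlap between the 6 sorbose and the 6 odor flies was seen for 403 genes that were higher (3.65%) and for 390 that were lower (3.53%). Without odor flies 1 and 6 the count was 395 (3.58%), with 210 higher and 185 lower, and 378 of these were among the 2006. The count also fell more than 1.5 times when a single fly was left out, to 982, 1049, 1134, 1322 and 1296 genes without sorbose flies 1, 3, 4, 5 and 6, and to 1045, 1131 and 918 genes without odor flies 1, 3 and 6.

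The 43 functional lists, chosen with earlier results of these data known, held 1373 genes, of which 1118 passed the filter. The share of tested members called higher in sorbose flies was largest in the lists for ribosome assembly in the nucleolus (74.6%), the chaperonin CCT (71.4%), Turandot genes (2 of 4), mitochondrial ribosomal proteins (49.3%) and tRNA charging (41.9%). The share called lower was largest for autophagy (52.6%), insulin signalling (42.1%), gluconeogenesis (2 of 5), the breakdown of amino acids (36.8%), one-carbon metabolism (35.3%) and TOR signalling (35.0%), while the largest number of lower calls was in cytochrome P450 (16 of 76). The lists of proteasome subunits (35 tested), antimicrobial peptides (14), Bomanins (16), sweet taste receptors (5) and yolk proteins (3) had no member called in either direction. At an unadjusted limma p under 0.05 the proteasome list had 1 gene higher and 1 lower and the other lists had 0, and limma-voom on the reads recovered from the RPKM called 0 in all of these lists. With 1 fly left out at a time, the number of called members stayed within 1.5 times for amino acid breakdown, one-carbon metabolism, lipases, TOR signalling, nucleolar genes, cytochrome P450, glutathione transferases, ecdysone response genes, cuticle proteins and cytoplasmic ribosomal proteins. It moved further in at least 1 such fit for every other functional list with a called member.

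**Figure D2:**
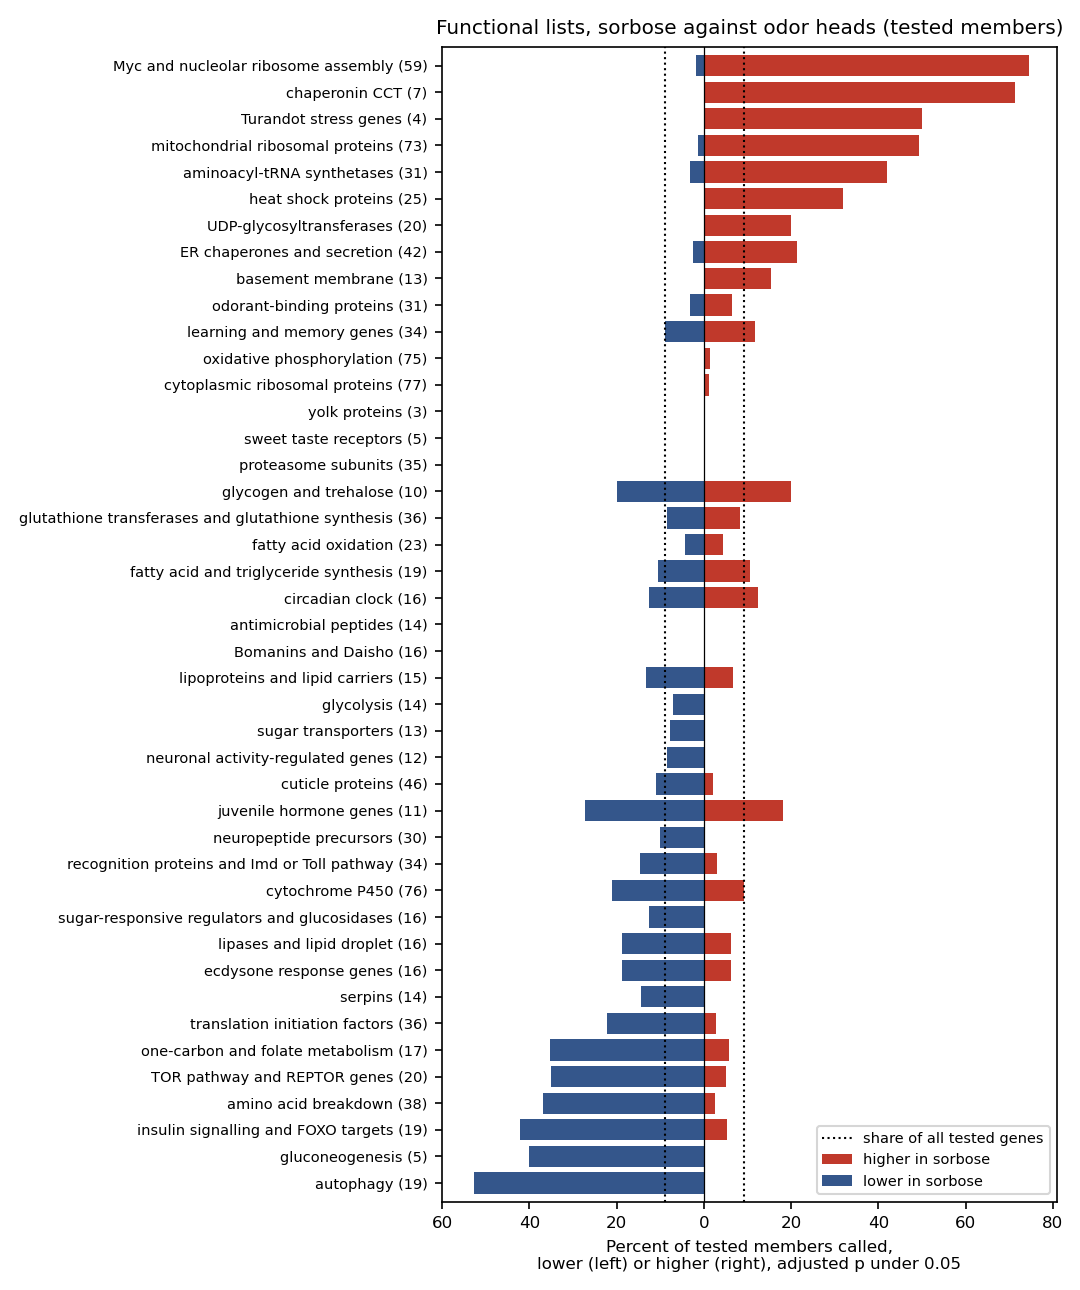
Share of the tested members of each functional list that were called higher (right, red) or lower (left, blue) in sorbose flies, in percent, with the number of tested members in parentheses. Dotted lines mark the share among all tested genes, 9.3% higher and 8.87% lower. The nucleolar list reaches furthest to the right (74.6%) and the autophagy list furthest to the left (52.6%).

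Breakdown of amino acids had more genes lower than higher after sorbose. Of 38 tested genes 14 were lower (36.8%, against 8.87% of all genes) and 1 was higher, with a median log2 difference of -0.27 against 0.01 over all genes. The counts were 8 lower and 0 higher without odor flies 1 and 6 (all genes, 1.68% and 1.9%), against 19 and 1 at an unadjusted p under 0.05 in that limma fit. Bcat, the aminotransferase that opens the breakdown of branched-chain amino acids (FBgn0030482, dm6 chromosome X, 13396899 to 13401224, plus strand), had 3.92, 21.01 and 61.7 RPKM in sorbose flies (lowest, median and highest), against 81.1, 274 and 438 RPKM in odor flies. The groups did not overlap, and the highest sorbose fly was below the lowest odor fly (log2 difference -3.72 ± 0.62, adjusted p = 0.00672). Tdh, a threonine dehydrogenase, had 10.2, 20.3 and 45.8 RPKM in sorbose flies, against 35.3, 153 and 423 RPKM in odor flies (log2 difference -2.65 ± 0.56, adjusted p = 0.0139). Sorbose fly 1 lay above odor fly 4, and without odor flies 1 and 6 it was not called (log2 difference -1.99, adjusted p = 0.0537). Hn, phenylalanine hydroxylase, had 154, 217 and 248 RPKM in sorbose flies, against 323, 413 and 569 RPKM in odor flies, with no overlap (log2 difference -0.99 ± 0.17, adjusted p = 0.00729). Of the enzymes that follow it on the route through tyrosine, some were also lower. The log2 differences were -1.46 ± 0.11 for Hpd, -0.87 ± 0.23 for hgo and -0.87 ± 0.13 for Faa. In the same list Tat and GstZ2 were lower (-0.94 ± 0.12 and -0.77 ± 0.15), whereas GstZ1 was not called (-0.05 ± 0.14, adjusted p = 0.85). The value of Hpd is uncertain because it shares reads with CtIP, and hgo was not called without sorbose fly 4 or 5 or odor fly 3 (adjusted p up to 0.0558). The gene v, which opens the breakdown of tryptophan, had a log2 difference of -0.84 ± 0.23 and was not called without sorbose fly 1 or 4 or odor fly 1, 2 or 6 (adjusted p up to 0.0601). Against this direction, ppl, a subunit of the glycine cleavage system, was higher with 41.8, 61.8 and 79.8 RPKM in sorbose flies, against 16.9, 27.1 and 49.2 RPKM in odor flies (log2 difference 1.09 ± 0.27, adjusted p = 0.0208). That gene is highly expressed in the fat body, whose 11 markers summed to a median of 8339 RPKM in sorbose flies and 4640 RPKM in odor flies, and their part was not tested.

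One-carbon metabolism moves methyl and folate-bound carbon groups between serine, glycine, methionine and purines. Its list had 6 lower (35.3%, against 8.87% of all genes) and 1 higher of 17 tested genes, with a median of -0.37. The higher gene, ppl, and the lower gene Gnmt are also counted in the list for amino acid breakdown. In the fit without odor flies 1 and 6 limma called 1 lower and 0 higher (unadjusted p under 0.05, 7 lower and 1 higher). Gnmt, which uses methyl groups to turn glycine into sarcosine, had 0.1295, 0.7404 and 2.11 RPKM in sorbose flies (lowest, median and highest), against 4.54, 11.2 and 44.7 RPKM in odor flies. No sorbose fly reached the lowest odor fly (log2 difference -3.52 ± 0.54, adjusted p = 0.0055). The exons of Gnmt overlap those of CG43630, whose values follow it, so that the reads cannot be assigned to either. Shmt, which links serine to folate, had 77.5, 189 and 379 RPKM in sorbose flies, against 310.2, 405 and 865 RPKM in odor flies, and the groups overlapped through sorbose fly 1 (log2 difference -1.47 ± 0.38, adjusted p = 0.024). It shares reads with an antisense gene. Ahcy, which removes the product of methylation, had 14.2, 32.04 and 63.9 RPKM in sorbose flies, against 28.3, 123 and 272 RPKM in odor flies (log2 difference -1.79 ± 0.52, adjusted p = 0.036), and it was not called without sorbose fly 2, 3, 4, 5 or 6 or odor fly 1, 2, 3 or 6 (adjusted p up to 0.081). Nmdmc, a folate enzyme of mitochondria, had a log2 difference of -1.98 ± 0.41 and shares reads with Mst85C.

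Of 5 enzymes of gluconeogenesis, which makes glucose from smaller molecules, the 2 PEP carboxykinases were lower (40%, against 8.87% of all genes). The other 3 did not pass the test. The count was 1 lower without odor flies 1 and 6. Pepck2 had 3.89, 7.396 and 13.9 RPKM in sorbose flies (lowest, median and highest), against 15.8, 37.3 and 65.9 RPKM in odor flies, without overlap (log2 difference -2.21 ± 0.39, adjusted p = 0.00815). Pepck1 had much higher RPKM, with 581, 774 and 1344 RPKM in sorbose flies, against 992, 1337 and 2242 RPKM in odor flies (log2 difference -0.86 ± 0.23, adjusted p = 0.028). It overlaps CG45087 and was not called without sorbose fly 3, 4, 5 or 6 or odor fly 1 or 6 (adjusted p up to 0.0644). For fbp, fructose-bisphosphatase, the groups overlapped, with 97.5, 181 and 259 RPKM in sorbose flies, against 140.5, 183 and 281 RPKM in odor flies (log2 difference -0.19 ± 0.24, adjusted p = 0.605). G6P and PCB had log2 differences of -0.03 ± 0.05 and 0.27 ± 0.15 (adjusted p = 0.695 and 0.211). Glycolysis had 1 gene lower of 14 (7.14%, against 8.87% of all genes), Hex-A, the hexokinase (log2 difference -0.42 ± 0.10, adjusted p = 0.0187). In the list for glycogen and trehalose 2 genes were higher and 2 lower of 10 (20% each, against 9.3% and 8.87% of all genes). Glyp, which releases sugar from glycogen, led the rises (log2 difference 0.85 ± 0.27, adjusted p = 0.0468) and was not called in 9 of the 12 fits that each left out 1 fly. Tps1, which makes trehalose, the blood sugar of insects, was lower with 183, 274 and 299.7 RPKM in sorbose flies, against 313, 366 and 510.4 RPKM in odor flies (log2 difference -0.61 ± 0.16, adjusted p = 0.0277). It was not called without sorbose fly 3 or odor fly 3 or 6 (adjusted p up to 0.0625). Treh, which splits trehalose, was lower as well (log2 difference -0.57 ± 0.11, adjusted p = 0.011). Among 16 sugar-responsive regulators and glucosidases 2 were lower (12.5%, against 8.87% of all genes), led by Mal-B2, a maltase (log2 difference -1.35 ± 0.27, adjusted p = 0.0122). Of 13 sugar transporters 1 was lower (7.69%, against 8.87% of all genes), CG8249 (log2 difference -0.64 ± 0.18, adjusted p = 0.0321). It was not called without sorbose fly 2, 4 or 6 or odor fly 1, 2 or 3 (adjusted p up to 0.062). In the fit without odor flies 1 and 6 limma called 0 genes in the lists for glycolysis, glycogen and trehalose, sugar regulators and sugar transporters, where an unadjusted p under 0.05 was held by 0 higher and 1 lower, 2 and 2, 0 and 3, and 0 and 2.

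**Figure D3:**
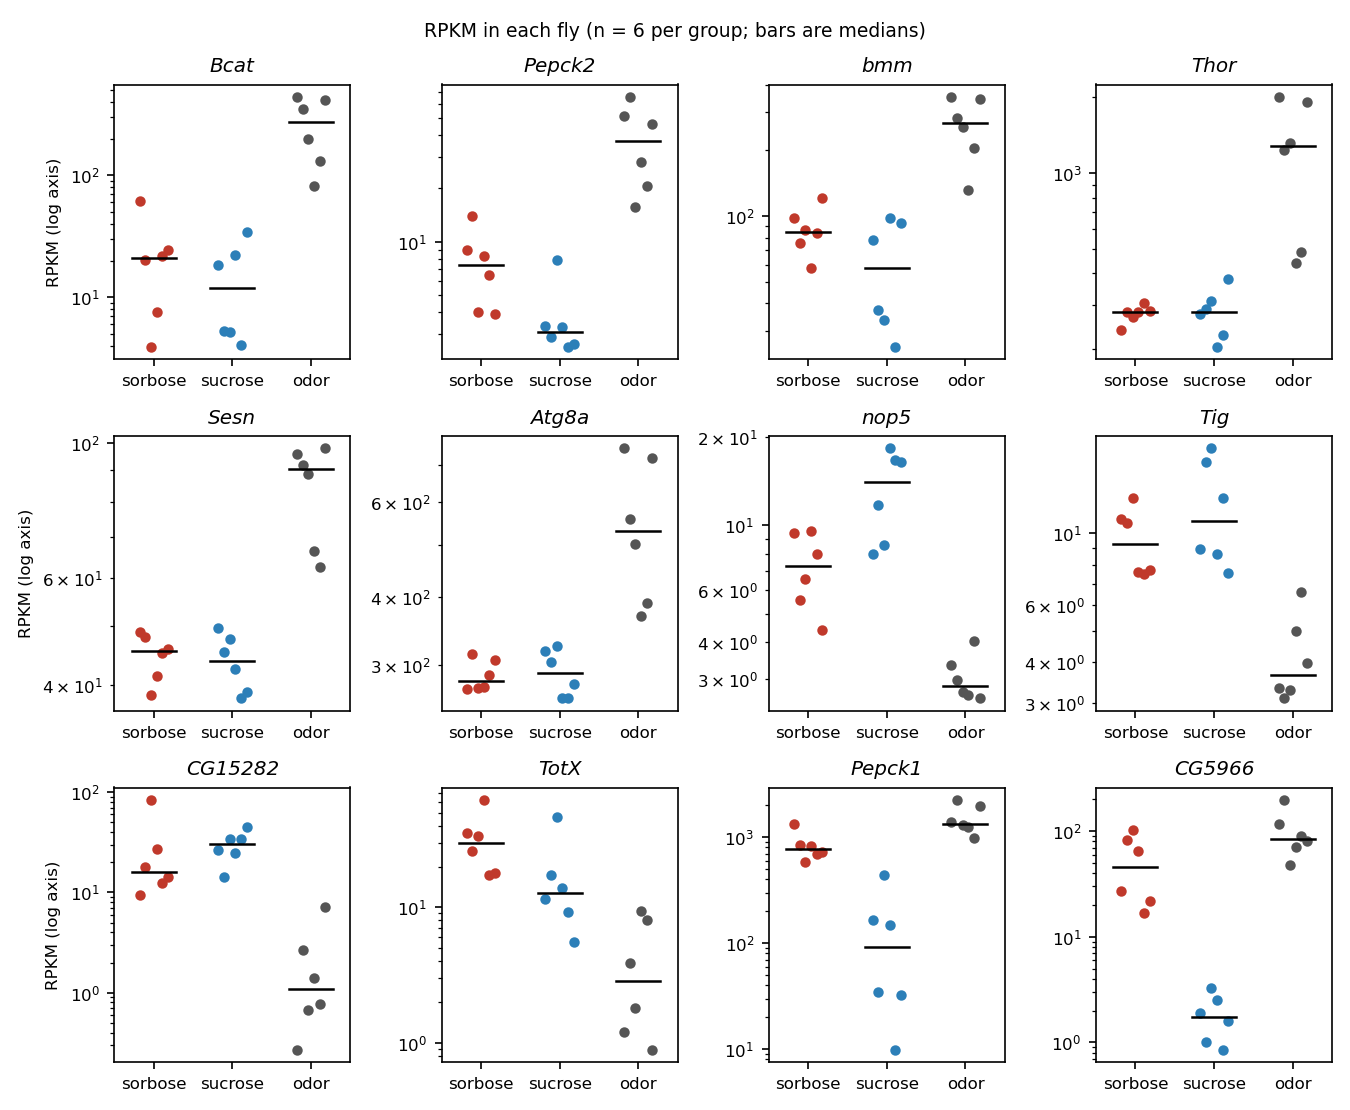
RPKM of 12 genes in each of the 6 sorbose, 6 sucrose and 6 odor flies (y axis, logarithmic), with a bar at each group's median. In sorbose flies Bcat, Pepck2, bmm, Thor, Sesn and Atg8a lie below all odor flies, and nop5, Tig, CG15282 and TotX lie above them, while Pepck1 and CG5966 overlap with odor flies.

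Of 16 tested genes for lipases and the lipid droplet 3 were lower (18.75%, against 8.87% of all genes), mag, CG31683 and bmm. Reads of mag cannot be told apart from those of atk where these genes overlap. CG31683 may be a copy of CG18858 that splits reads with it. Neither mag nor CG31683 was called without odor flies 1 and 6 (adjusted p = 0.088 and 0.0585). The 1 higher gene was Lsd-1. The counts were 1 and 1 without odor flies 1 and 6. The triglyceride lipase bmm, which frees fatty acids from lipid droplets, had 57.8, 85.1 and 121 RPKM in sorbose flies (lowest, median and highest), against 133, 268 and 351 RPKM in odor flies, with no overlap (log2 difference -1.54 ± 0.24, adjusted p = 0.00556). Lsd-1, which coats the droplet, had 27.02, 62.9 and 81.1 RPKM in sorbose flies, against 2.098, 10.95 and 21.5 RPKM in odor flies, again with no overlap (log2 difference 2.68 ± 0.56, adjusted p = 0.0133). It shares reads with CG10214 and is among the fat body markers, whose part in its difference was not tested. The lipase mag was at the edge of detection in sorbose flies, with 0.02199, 0.0547 and 0.114 RPKM in sorbose flies, against 0.4303, 9.53 and 21.03 RPKM in odor flies and no overlap (log2 difference -3.27 ± 0.78, adjusted p = 0.0192). The lowest sorbose fly had 2 reads, and the difference was -4.81 with a pseudocount of 0.1 and -2.59 with a pseudocount of 1. CG5966, another lipase, was not called, with 16.6, 46.1 and 103 RPKM in sorbose flies, against 47.9, 85.1 and 197 RPKM in odor flies (log2 difference -1.10 ± 0.48, adjusted p = 0.127). Lpin, a phosphatidate phosphatase used in fat synthesis, was lower with 56.1, 65.2 and 74.6 RPKM in sorbose flies, against 79.1, 149.5 and 215 RPKM in odor flies (log2 difference -1.11 ± 0.22, adjusted p = 0.011), and shares reads with kermit. In the list for the synthesis of fatty acids and triglycerides it was 1 of 2 genes that were lower, and 2 of the 19 were higher, shares near those of all genes (8.87% and 9.3%). The counts were 1 and 0 without odor flies 1 and 6. Acsl, which activates fatty acids, was the leading rise (log2 difference 0.51 ± 0.13, adjusted p = 0.0219), and was not called without odor fly 6 (adjusted p up to 0.0518).

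Lipid carriers had 1 higher and 2 lower of 15, a share near the 18.2% called among all genes, and limma called 0 without odor flies 1 and 6 (unadjusted p under 0.05, 2 and 2). The higher one was apolpp, which encodes the main apolipoprotein of fly blood, with 62.7, 128 and 270.5 RPKM in sorbose flies, against 8.69, 20.1 and 98.3 RPKM in odor flies (log2 difference 2.48 ± 0.63, adjusted p = 0.023). The groups overlapped through odor flies 4 and 5, the gene was not called without odor flies 1 and 6 (log2 difference 1.77, adjusted p = 0.1), nor without sorbose fly 3 or odor fly 3 or 6 (adjusted p up to 0.0522). LpR1, a lipoprotein receptor, was lower with a log2 difference of -0.83 ± 0.25 and was not called in 10 of the 12 fits that each left out 1 fly. Fatty acid oxidation had 1 higher and 1 lower of 23 genes (4.35% each, against 9.3% and 8.87% of all genes). They were the neighbouring peroxisomal oxidases Acox57D-d (1.11 ± 0.19) and Acox57D-p (-0.53 ± 0.17). The second was not called in 10 of those 12 fits and was not called without odor flies 1 and 6. Among fat body markers 3 of 9 were higher (33.3%, against 9.3% of all genes), Lsd-1, apolpp and Obp99b (1.23 ± 0.37). Obp99b was not called in 8 of the 12 fits. The count was 1 without odor flies 1 and 6. The fat body marker Nplp2 had a log2 difference of 2.09 ± 0.75 (adjusted p = 0.0724) and was called without odor fly 4 or 5 (adjusted p up to 0.0329).

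The lists for insulin and TOR signalling had more genes lower than higher. Both mix members of the pathways with genes that act when the pathways are low, so that the counts give no direction of signalling. In the insulin and FOXO list 8 of 19 were lower (42.1%, against 8.87% of all genes) and 1 was higher (all genes, 9.3%), and without odor flies 1 and 6 the counts were 3 and 1 (all genes, 1.68% and 1.9%). In the TOR and REPTOR list 7 of 20 were lower (35.0%) and 1 was higher, and without those flies 3 and 0. The lipase bmm, described above, had the largest fall of this list and is counted in both lists. Leaving out odor fly 6 alone gave 4 lower and 1 higher in the insulin list. Thor, the inhibitor of the cap-binding factor eIF4E and a FOXO target, had 239, 281 and 306 RPKM in sorbose flies (lowest, median and highest), against 441, 1281 and 2006 RPKM in odor flies, with no overlap (log2 difference -1.93 ± 0.36, adjusted p = 0.00998). Odor flies 4 and 5 held the lowest odor values. ImpL2, a secreted protein that binds insulin-like peptides, had 13.7, 31.2 and 33.96 RPKM in sorbose flies, against 43.2, 84.7 and 133 RPKM in odor flies, with no overlap (log2 difference -1.60 ± 0.31, adjusted p = 0.0108). The transcription factor foxo itself had 12.1, 20.4 and 23.3 RPKM in sorbose flies, against 22.8, 33.4 and 52.9 RPKM in odor flies (log2 difference -0.83 ± 0.21, adjusted p = 0.0247), and was not called without odor fly 6 (adjusted p up to 0.056). Genes of the kinase pathway that holds FOXO back were lower as well, with log2 differences of -0.63 ± 0.16 for Akt and -0.59 ± 0.17 for the receptor substrate chico. The reads of chico are shared with an antisense gene, and it was not called in 8 of the 12 fits that each left out 1 fly. srl, the fly PGC-1, which promotes mitochondrial genes, was higher with 1.91, 2.56 and 3.58 RPKM in sorbose flies, against 0.859, 1.23 and 1.7001 RPKM in odor flies and no overlap (log2 difference 0.83 ± 0.14, adjusted p = 0.00715).

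Genes that act when TOR is low were among the lower ones. Sesn, sestrin, an inhibitor of TOR, had 38.5, 45.4 and 48.9 RPKM in sorbose flies, against 62.5, 90.4 and 97.8 RPKM in odor flies, with no overlap (log2 difference -0.89 ± 0.12, adjusted p = 0.00464). REPTOR, a transcription factor that TOR keeps out of the nucleus, had 11.8, 13.6 and 14.5 RPKM in sorbose flies, against 15.7, 22.9 and 32.4 RPKM in odor flies, with no overlap (log2 difference -0.72 ± 0.17, adjusted p = 0.0188). The kinase mTor itself had a log2 difference of 0.17 ± 0.05 and was not called in 10 of the 12 fits. The insulin-like peptides of the brain did not pass the test. Ilp2 had 60.7, 77.3 and 91.7 RPKM in sorbose flies, against 66.04, 72.4 and 78.3 RPKM in odor flies (log2 difference 0.06 ± 0.09, adjusted p = 0.645), and Ilp3 and Ilp5 had log2 differences of -0.10 ± 0.08 and 0.31 ± 0.33 (adjusted p = 0.452 and 0.536).

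Autophagy, the digestion of cell contents in lysosomes, was lower in 10 of 19 tested genes (52.6%, against 8.87% of all genes) and higher in 0, with a median of -0.28. At an unadjusted limma p under 0.05 the counts were also 10 and 0, and limma-voom gave 10 and 0. The list mean relative to the odor flies was between -0.40 and -0.28 in sorbose flies and between -0.25 and 0.27 in odor flies, and odor flies 4 and 5 (-0.25 and -0.22) were the nearest to sorbose. Atg8a, which coats the autophagosome membrane, had 271, 280.4 and 315 RPKM in sorbose flies (lowest, median and highest), against 369.8, 530.1 and 752 RPKM in odor flies, with no overlap (log2 difference -0.88 ± 0.17, adjusted p = 0.0107). Atg18b, which binds lipids at that membrane, had 23.7, 26.4 and 30.99 RPKM in sorbose flies, against 31.3, 46.6 and 83.8 RPKM in odor flies, also with no overlap (log2 difference -0.90 ± 0.22, adjusted p = 0.0201). Both were called without odor flies 1 and 6, where they were the count of 2 for the list. The count was 3, 3, 5, 5 and 5 without sorbose flies 1, 3, 4, 5 and 6, and 4, 6 and 3 without odor flies 1, 3 and 6.

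Genes that assemble ribosomes in the nucleolus had the highest share of called members among the 43 functional lists. Of 59 tested genes 44 were higher (74.6%, against 9.3% of all genes) and 1 was lower, with a median of 0.38. In 30 genes every sorbose fly was above every odor fly (3.65% over all genes), and without odor flies 1 and 6 the counts were 30 higher and 0 lower. The list mean was between 0.22 and 0.54 in sorbose flies and between -0.13 and 0.15 in odor flies. Odor fly 4 was the lowest of the odor flies and odor fly 5 the highest. The core proteins of the box C/D particles that methylate ribosomal RNA were among the higher genes. One of these, nop5, had 4.41, 7.28 and 9.54 RPKM in sorbose flies (lowest, median and highest), against 2.57, 2.84 and 4.02 RPKM in odor flies, with no overlap (log2 difference 1.10 ± 0.18, adjusted p = 0.00605). Another, hoip, had 5.97, 8.8003 and 11.2 RPKM in sorbose flies, against 2.92, 4.01 and 6.28 RPKM in odor flies, with an overlap between sorbose fly 2 and odor fly 5 (log2 difference 0.98 ± 0.18, adjusted p = 0.00857). The methyltransferase Fib had 5.28, 6.95 and 8.56 RPKM in sorbose flies, against 3.36, 3.86 and 5.03 RPKM in odor flies (log2 difference 0.68 ± 0.13, adjusted p = 0.0113). The proteins that carry out pseudouridylation were higher too. NHP2 had 7.78, 10.02 and 11.8 RPKM in sorbose flies, against 3.86, 4.46 and 7.02 RPKM in odor flies (log2 difference 0.99 ± 0.14, adjusted p = 0.00498), and the enzyme Nop60B had 3.905, 5.63 and 7.04 RPKM in sorbose flies, against 2.33, 2.57 and 3.58 RPKM in odor flies (log2 difference 0.92 ± 0.14, adjusted p = 0.0055). Fib, NHP2 and Nop60B had no overlap between groups. The transcription factor Myc, which drives these genes in growing cells, had 4.79, 6.42 and 7.83 RPKM in sorbose flies, against 4.36, 6.43 and 9.27 RPKM in odor flies (log2 difference 0.00 ± 0.18, adjusted p = 0.989). Its partner Max was the lower gene of the list, with a log2 difference of -0.41 ± 0.13, and was not called in 10 of the 12 fits that each left out 1 fly.

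**Figure D4:**
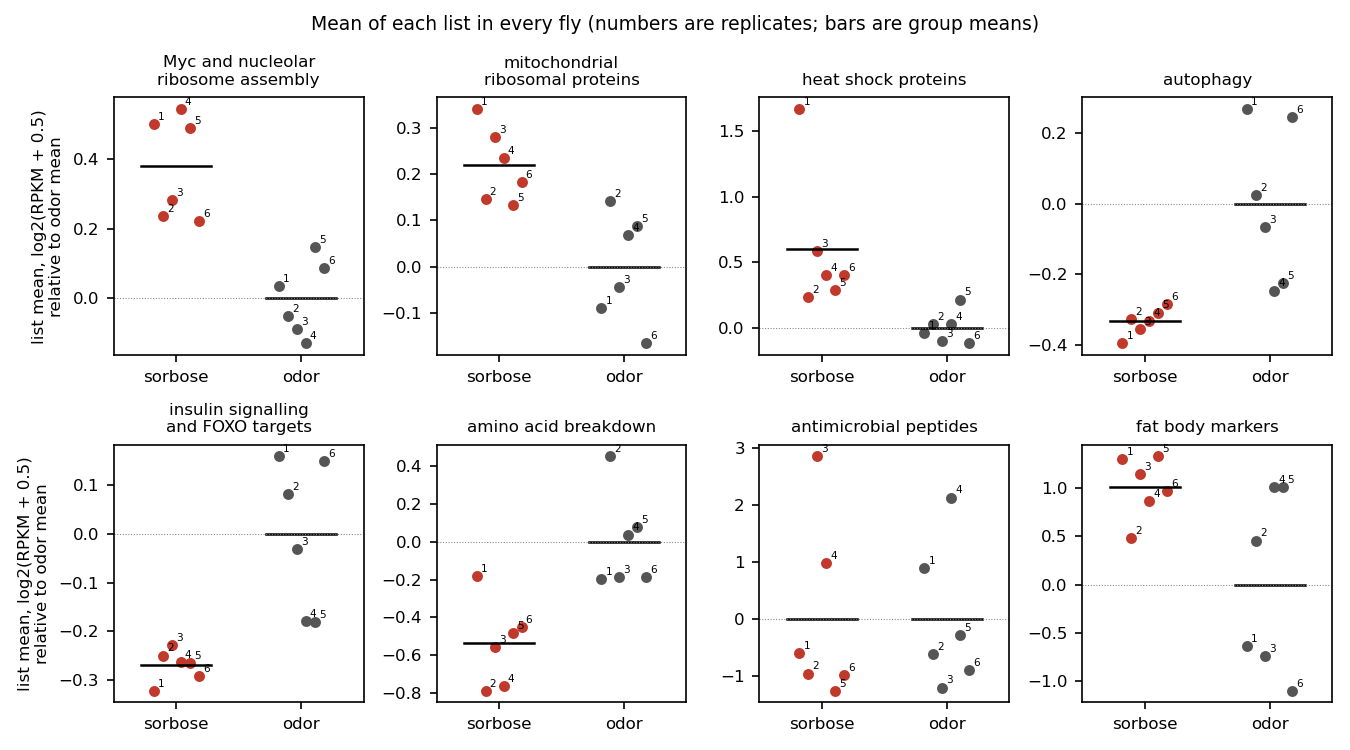
Mean of log2(RPKM + 0.5) over the tested members of 8 lists in each fly, relative to the mean of the 6 odor flies (y axis), for sorbose flies (left) and odor flies (right), with replicate numbers and bars at group means. Nucleolar genes lie between 0.22 and 0.54 in sorbose flies and between -0.13 and 0.15 in odor flies, while odor flies 4 and 5 come near the sorbose flies for autophagy, insulin signalling and fat body markers.

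Other parts of the translation apparatus differed from list to list. Cytoplasmic ribosomal proteins had 1 higher of 77 (1.3%, against 9.3% of all genes) and a median of 0.03. The exception was RpLP0-like, a relative of the stalk protein that acts in the assembly of the large subunit in yeast, with 9.503, 12.3 and 14.7 RPKM in sorbose flies, against 7.01, 7.65 and 9.33 RPKM in odor flies (log2 difference 0.61 ± 0.12, adjusted p = 0.0104). Mitochondrial ribosomal proteins were higher in 36 of 73 (49.3%, against 9.3% of all genes) and lower in 1, with a median of 0.24. The count was 7 higher without odor flies 1 and 6 (all genes, 1.9%). Leaving out 1 fly gave 16, 18 and 21 higher without sorbose flies 1, 3 and 4, and 22, 23 and 18 without odor flies 1, 3 and 6. The leading gene mRpL20 had 24.5, 27.3 and 31.3 RPKM in sorbose flies, against 14.9, 21.7 and 25.5 RPKM in odor flies (log2 difference 0.43 ± 0.14, adjusted p = 0.0498), and it was not called in 8 of those 12 fits. mRpS9, the lower one, had 159.9, 166 and 167 RPKM in sorbose flies, against 175, 209 and 217 RPKM in odor flies, with no overlap (log2 difference -0.28 ± 0.07, adjusted p = 0.0181). Of 31 aminoacyl-tRNA synthetases, which load amino acids on tRNAs, 13 were higher (41.9%, against 9.3% of all genes) and 1 was lower. The count was 2 higher without odor flies 1 and 6 (all genes, 1.9%). Without sorbose fly 1, sorbose fly 3 or odor fly 6 it was 8, 7 and 6 higher. AlaRS led with 9.53, 12.5 and 14.96 RPKM in sorbose flies, against 7.53, 8.08 and 9.09 RPKM in odor flies, with no overlap (log2 difference 0.56 ± 0.11, adjusted p = 0.0103), and TyrRS was the lower one (log2 difference -0.37 ± 0.08, adjusted p = 0.0124). Translation initiation factors pointed the other way, with 8 lower (22.2%, against 8.87% of all genes) and 1 higher of 36. Of the lower ones 6 were subunits of eIF3, led by eIF3a with 38.2, 43.4 and 48.6 RPKM in sorbose flies, against 49.9, 55.8 and 74.6 RPKM in odor flies and no overlap (log2 difference -0.41 ± 0.09, adjusted p = 0.0159), whereas eIF2beta was higher (log2 difference 0.65 ± 0.16, adjusted p = 0.0216) but not called without sorbose fly 1 or odor fly 6 (adjusted p up to 0.0508). Without odor flies 1 and 6 limma called 0 initiation factors (unadjusted p under 0.05, 2 higher and 10 lower), and the 8 lower factors became 4 without sorbose fly 1, odor fly 1 or odor fly 6. Oxidative phosphorylation had 1 higher of 75 (1.33%, against 9.3% of all genes), UQCR-11L (0.48 ± 0.15). This gene was not called in 9 of the 12 fits or without odor flies 1 and 6.

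In lists for protein folding the called members were mostly higher, and sorbose fly 1 had the highest list means. The cytosolic chaperonin CCT folds actin and tubulin. It was higher in 5 of 7 subunits (71.4%, against 9.3% of all genes), with a median of 0.45. CCT2 had a log2 difference of 0.63 ± 0.14, and CCT5 had 12.2, 20.1 and 34.8 RPKM in sorbose flies, against 10.5, 12.1 and 15.1 RPKM in odor flies (log2 difference 0.69 ± 0.20, adjusted p = 0.0335). CCT5 was not called in 9 of the 12 fits that each left out 1 fly. Heat shock proteins were higher in 8 of 25 (32%, against 9.3% of all genes) and lower in 0. Their list mean was 1.67 in sorbose fly 1, 0.24 to 0.59 in the other sorbose flies and -0.12 to 0.21 in odor flies. Hsp83, the fly Hsp90, had 151, 269.95 and 847 RPKM in sorbose flies, against 108, 137 and 178 RPKM in odor flies (log2 difference 1.18 ± 0.32, adjusted p = 0.0296), the highest value being that of sorbose fly 1, and was not called without sorbose fly 4 or 5 or odor fly 1, 3 or 6 (adjusted p up to 0.0659). Hsp68, a stress-induced Hsp70, had a log2 difference of 1.12 ± 0.33 and was not called in 8 of the 12 fits. Hsp60A, the mitochondrial chaperonin, had a log2 difference of 0.57 ± 0.12 (adjusted p = 0.0127). Without sorbose fly 1 the counts were 3 for the chaperonin and 5 for heat shock proteins, and without odor flies 1 and 6 limma called 0 members of either list (unadjusted p under 0.05, 7 and 9 higher). The chaperonin count was also 3 without sorbose fly 3, 4 or 5 or odor fly 1, 2, 3 or 6. The heat shock count was 3 to 5 without sorbose fly 3, 4, 5 or 6 or odor fly 1, 3 or 6. Of 42 chaperones and secretion genes of the endoplasmic reticulum 9 were higher (21.4%, against 9.3% of all genes) and 1 was lower. Calr, calreticulin, had 123, 201 and 307 RPKM in sorbose flies, against 86.5, 104 and 147 RPKM in odor flies (log2 difference 0.89 ± 0.20, adjusted p = 0.0161), and the lower gene was Trp1 (-0.35 ± 0.10), which was not called in 9 of the 12 fits. Without odor flies 1 and 6 limma called 0 genes of this list (unadjusted p under 0.05, 17 higher and 2 lower), and leaving out any 1 of the sorbose flies 1, 3, 4, 5 and 6 or the odor flies 1, 2, 3 and 6 left 3 to 6 higher.

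Turandot genes encode small secreted proteins made under stress, and 4 of the 8 passed the filter. TotX had 17.5, 29.9 and 62.2 RPKM in sorbose flies (lowest, median and highest), against 0.882, 2.83 and 9.42 RPKM in odor flies, with no overlap (log2 difference 3.06 ± 0.52, adjusted p = 0.00703). TotC had 1.005, 12.3 and 144 RPKM in sorbose flies, against 0.0489, 0.5804 and 1.94 RPKM in odor flies (log2 difference 3.47 ± 0.91, adjusted p = 0.0267), where the lowest odor fly had 2 reads, and it was not called without sorbose fly 1 or 3 or odor fly 1, 3 or 6 (adjusted p up to 0.0601). TotA and TotM had log2 differences of 2.75 ± 0.91 and 2.05 ± 0.73 (adjusted p = 0.055 and 0.0691). They were called without sorbose fly 2, and TotA also without odor fly 5. All 4 tested genes had positive differences and 2 were called (50%, against 9.3% of all genes called higher). The count was 1 with limma-voom and 1 in the fit without odor flies 1 and 6.

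Of 14 antimicrobial peptides and 16 Bomanins 0 were called. Without odor flies 1 and 6 limma also called 0 (unadjusted p under 0.05, 1 antimicrobial peptide higher and 4 Bomanins lower). With all flies 12 Bomanins had a negative and 4 a positive difference (median -0.28). The list mean of 14 antimicrobial peptides, relative to the mean of the odor flies, was high in single flies of both groups, 2.85 and 0.98 in sorbose flies 3 and 4 and 2.12 and 0.89 in odor flies 4 and 1, and below 0 in the other 8 flies. DptB, a diptericin, had 5.65, 5.995 and 65.8 RPKM in sorbose flies, against 3.15, 4.26 and 139 RPKM in odor flies (log2 difference 0.39 ± 0.92, adjusted p = 0.798). Drsl4, a relative of the antifungal peptide drosomycin that was not on that list, was among the largest rises, with 66.7, 104 and 132 RPKM in sorbose flies, against 3.09, 20.2 and 75.3 RPKM in odor flies (log2 difference 2.61 ± 0.67, adjusted p = 0.0242), and was not called without sorbose fly 1 or 3 (adjusted p up to 0.0521). Of 34 genes for recognition proteins and the Imd and Toll pathways 5 were lower (14.7%, against 8.87% of all genes) and 1 was higher, and without odor flies 1 and 6 the counts were 1 and 0. They were 2 or 3 lower and 0 higher without sorbose fly 1, 4 or 5 or odor fly 1, 2, 3 or 6. Rel, the transcription factor of the Imd pathway, had 21.8, 28.2 and 45.2 RPKM in sorbose flies, against 34.8, 67.9 and 148 RPKM in odor flies (log2 difference -1.22 ± 0.34, adjusted p = 0.0309) and was not called without sorbose fly 4, 5 or 6 or odor fly 1, 2 or 6 (adjusted p up to 0.0693). PGRP-SD, a secreted recognition protein, was the higher one, with 18.96, 21.7 and 138 RPKM in sorbose flies, against 4.91, 6.36 and 27.9 RPKM in odor flies (log2 difference 1.91 ± 0.57, adjusted p = 0.0391), and was not called in 8 of the 12 fits that each left out 1 fly. In the serpin list 2 of 14 were lower (14.3%, against 8.87% of all genes), and 1 without odor flies 1 and 6. Spn88Eb led them with 3.26, 4.18 and 28.96 RPKM in sorbose flies, against 11.1, 54.995 and 482 RPKM in odor flies (log2 difference -3.14 ± 0.86, adjusted p = 0.0297). Odor fly 1 held its highest value, and the gene was not called without sorbose fly 1, 4, 5 or 6 or odor fly 2, 3 or 6 (adjusted p up to 0.0668).

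Of 76 cytochrome P450 genes 16 were lower (21.1%, against 8.87% of all genes) and 7 were higher (9.21%, against 9.3%), and without odor flies 1 and 6 the counts were 9 and 3. Neighbours on chromosome 2L differed in direction. Cyp4ac3 had 2.56, 3.94 and 5.603 RPKM in sorbose flies, against 7.97, 18.4 and 25.1 RPKM in odor flies, with no overlap (log2 difference -1.89 ± 0.27, adjusted p = 0.00498), whereas Cyp4ac2 was higher with 4.94, 6.38 and 12.2 RPKM in sorbose flies, against 1.26, 2.34 and 5.14 RPKM in odor flies (log2 difference 1.29 ± 0.29, adjusted p = 0.0168). Of 20 UDP-glycosyltransferases 4 were higher (20%, against 9.3% of all genes) and 0 lower, led by Ugt36F1 (log2 difference 1.30 ± 0.28, adjusted p = 0.015). The count was 2 without any 1 of sorbose flies 1, 3 and 4 and odor flies 1, 3 and 6, 7 and 8 without odor flies 4 and 5, and 1 without odor flies 1 and 6. Of 36 genes for glutathione transferases and glutathione synthesis 3 were higher, led by GstE11 (0.47 ± 0.11), and 3 were lower, led by GstT4 (-0.82 ± 0.18). These shares, 8.33% each way, were near those of all genes, and limma called 0 without odor flies 1 and 6 (unadjusted p under 0.05, 5 higher and 4 lower).

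Of 11 juvenile hormone genes 2 were higher (18.2%) and 3 lower (27.3%), against 9.3% and 8.87% of all genes. Jhe, the esterase that breaks down juvenile hormone, had 0.844, 1.78 and 2.39 RPKM in sorbose flies, against 0.0832, 0.167 and 0.727 RPKM in odor flies, with no overlap (log2 difference 1.48 ± 0.22, adjusted p = 0.0055). The lower genes were led by JhI-26 (-0.37 ± 0.11), which shares reads with an antisense gene and was not called in 9 of the 12 fits that each left out 1 fly. Leaving out any fly other than odor flies 4 and 5 left 1 higher and 1 or 2 lower, and without odor flies 1 and 6 there were 2 higher and 0 lower. The ecdysone list had 1 higher (6.25%) and 3 lower (18.75%) of 16, against 9.3% and 8.87% of all genes. Here MsrA was higher (log2 difference 1.30 ± 0.27, adjusted p = 0.0133) and ImpL2, described above, was lower. Without odor flies 1 and 6 the counts were 1 and 2 (all genes, 1.9% and 1.68%). Of 30 neuropeptide precursors 3 were lower (10%), a share near the 8.87% of all genes. ETH, which encodes ecdysis-triggering hormone, led them with 1.98, 2.41 and 2.89 RPKM in sorbose flies, against 4.296, 5.25 and 6.48 RPKM in odor flies and no overlap (log2 difference -0.97 ± 0.11, adjusted p = 0.00215). It shares reads with an antisense gene. The list had 1 lower without sorbose fly 1, 3 or 6 or odor fly 3 or 6, and 2 without odor flies 1 and 6.

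None of 5 tested sweet taste receptors was called. Of these, 4 share reads with another gene, so that their own values are uncertain. Gr43a, the brain's fructose receptor, shares none and had 1.66, 1.95 and 2.201 RPKM in sorbose flies, against 1.597, 1.93 and 1.98 RPKM in odor flies (log2 difference 0.05 ± 0.07, adjusted p = 0.604). Among 12 activity-regulated genes 1 was lower (8.33%, against 8.87% of all genes). It was CG13868, with 108, 131 and 168 RPKM in sorbose flies, against 197, 469 and 949.8 RPKM in odor flies and no overlap (log2 difference -1.78 ± 0.36, adjusted p = 0.0121). The transcription factors Hr38 and sr, which neurons induce when active, had log2 differences of 0.30 ± 0.16 and -0.20 ± 0.19 (adjusted p = 0.207 and 0.489). Of 34 learning and memory genes 4 were higher and 3 lower (11.8% and 8.82%, against 9.3% and 8.87% of all genes). Without odor flies 1 and 6 the counts were 1 and 0, and they were 3 and 1 without sorbose fly 4, odor fly 1 or odor fly 6. Tig, an extracellular matrix protein, had 7.48, 9.27 and 12.9 RPKM in sorbose flies (lowest, median and highest), against 3.09, 3.65 and 6.61 RPKM in odor flies, with no overlap (log2 difference 1.11 ± 0.19, adjusted p = 0.00729). Gclm, a subunit of the enzyme that starts glutathione synthesis, had 33.2, 35.7 and 43.02 RPKM in sorbose flies, against 29.6, 31.6 and 33.2 RPKM in odor flies (log2 difference 0.22 ± 0.06, adjusted p = 0.0314) and was not called without sorbose fly 1, 4 or 5 or odor fly 1, 3 or 6 (adjusted p up to 0.0658). Fmr1, an RNA-binding repressor of translation, and CrebA, a transcription factor of secretory cells, had log2 differences of 0.24 ± 0.06 and 0.34 ± 0.07. Pka-C1, the catalytic subunit of protein kinase A, had 51.4, 56.5 and 67.1 RPKM in sorbose flies, against 64.2, 71.2 and 75.1 RPKM in odor flies (log2 difference -0.31 ± 0.07, adjusted p = 0.0159), and CrebB and amn had log2 differences of -0.30 ± 0.08 and -0.23 ± 0.06. CrebB was not called without sorbose fly 3, 4 or 6 or odor fly 1, 3 or 6 (adjusted p up to 0.058), and amn not without sorbose fly 1, 3, 4 or 6 or odor fly 1, 3 or 6 (adjusted p up to 0.0638). The clock genes per and tim had log2 differences of -0.05 ± 0.10 and -0.03 ± 0.09 (adjusted p = 0.779 and 0.85). Of 16 clock genes 2 were higher, led by to (0.67 ± 0.20), and 2 were lower, led by jet (-0.44 ± 0.12). These shares, 12.5% each way, were near those of all genes (9.3% and 8.87%). Without odor flies 1 and 6 the counts were 0 and 1. The gene to was not called in 10 and jet in 5 of the 12 fits that each left out 1 fly.

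The genes with the largest differences included members of no list. Genes with exons that overlap another gene and a correlation with it of at least 0.95 over the 12 flies were set aside. That rule left in some genes, named below, whose reads may come from another gene. Among the 10 largest rises, CG15282 (FBgn0028855, dm6 chromosome 2L, 14712471 to 14713298, plus strand) had 9.53, 16.1 and 83.4 RPKM in sorbose flies (lowest, median and highest), against 0.269, 1.08 and 7.17 RPKM in odor flies, with no overlap (log2 difference 3.43 ± 0.61, adjusted p = 0.00817). It was the one of the 10 whose difference was larger without odor flies 1 and 6 (log2 difference 3.59, adjusted p = 0.0256). CG16756 had 50.5, 68.5 and 88.02 RPKM in sorbose flies, against 0.671, 7.33 and 46.7 RPKM in odor flies (log2 difference 3.17 ± 0.88, adjusted p = 0.0307), with odor flies 4 and 5 near the sorbose flies, and it was not called in 8 of the 12 fits. Est-Q, an esterase, and CG2736 had log2 differences of 2.09 ± 0.58 and 1.97 ± 0.56, and were not called in 7 and 9 of those fits. Without odor flies 1 and 6, CG16756, Est-Q and CG2736 were not called either (adjusted p = 0.0872, 0.103 and 0.135). The remaining rise was listed for mir-4985 (2.04 ± 0.33), which lies inside the gene Fatp3, so that reads of the host cannot be told apart from it.

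**Figure D5:**
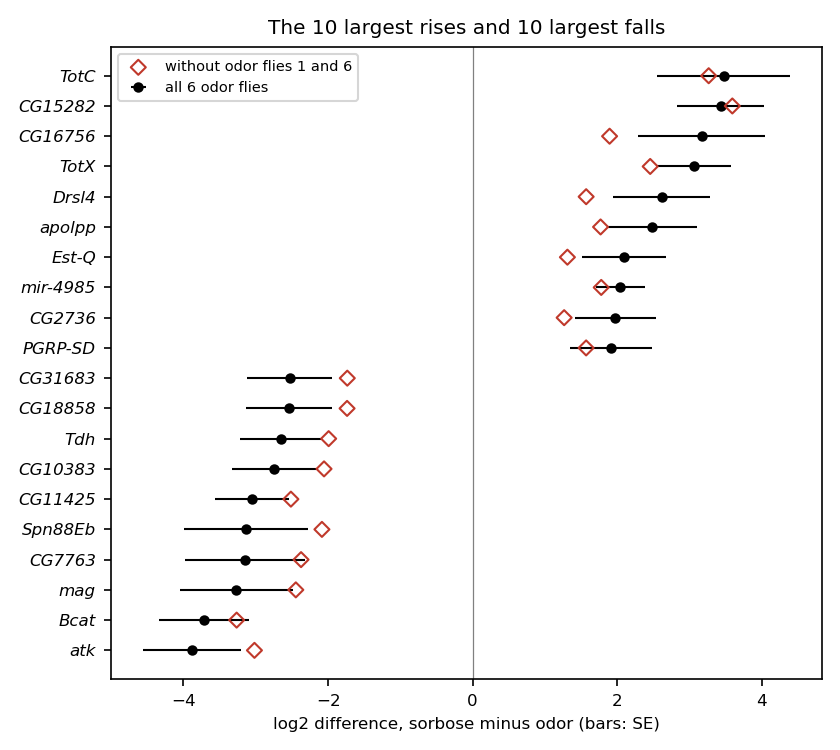
Log2 difference, sorbose minus odor (x axis), of the 10 called genes that rose most and the 10 that fell most, with all odor flies (filled circles, bars show the SE) and without odor flies 1 and 6 (open diamonds). TotC is at 3.47 and atk at -3.88, and every gene keeps its direction without odor flies 1 and 6. CG15282 is the one of the rises with a larger difference in that fit. TotC, CG16756, apolpp, Est-Q, CG2736, PGRP-SD, mag, CG7763, Spn88Eb, CG10383, Tdh, CG18858 and CG31683 were not called in it.

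The largest fall was that of atk, which encodes an extracellular leucine-rich repeat protein (FBgn0036995, dm6 chromosome 3L, 20454690 to 20464862, minus strand), with 0.172, 0.252 and 0.4403 RPKM in sorbose flies (lowest, median and highest), against 1.398, 15.8 and 37.6 RPKM in odor flies and no overlap (log2 difference -3.88 ± 0.68, adjusted p = 0.00808). The difference was -4.84 with a pseudocount of 0.1. The lipase gene mag (dm6 chromosome 3L, 20460683 to 20462274, plus strand) lies inside atk on the other strand, and Tdh (dm6 chromosome 3L, 20466944 to 20469592, plus strand) starts just beyond it, so that 3 of the 10 largest falls came from a single stretch of chromosome 3L. The kit kept no strand, and reads where mag and atk overlap cannot be told apart. CG11425 had 6.43, 9.83 and 38.7 RPKM in sorbose flies, against 35.5, 112 and 247 RPKM in odor flies (log2 difference -3.05 ± 0.51, adjusted p = 0.00702), and CG10383 had 10.7, 24.1 and 31.6 RPKM in sorbose flies, against 33.9, 169 and 357 RPKM in odor flies (log2 difference -2.75 ± 0.58, adjusted p = 0.0139). CG7763 had a log2 difference of -3.15 ± 0.83 and was not called without sorbose fly 3 or 4 or odor fly 1 or 6 (adjusted p up to 0.0598). CG10383 and CG7763 were not called without odor flies 1 and 6 together (adjusted p = 0.0544 and 0.124). CG31683 (dm6 chromosome 2L, 20447734 to 20449964, minus strand) and CG18858 (dm6 chromosome 2L, 20456847 to 20459075, minus strand) had almost the same RPKM in every fly, with a median of 37.7 and 37.6 in sorbose flies and 278 and 275 in odor flies (log2 differences -2.53 ± 0.59 and -2.54 ± 0.59). They may be copies between which the counting split the reads, and their values count as uncertain. CG31683 and CG18858 were not called without odor flies 1 and 6 (adjusted p = 0.0585 and 0.0572).

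Among markers of cell types other than the fat body, 2 of 10 for glia were higher (20%, against 9.3% of all genes) and 0 lower. The 10 glia markers had 6 positive and 4 negative differences. The higher ones were wrapper (1.33 ± 0.35) and CG6126 (1.16 ± 0.25), and wrapper was not called without sorbose fly 1, 3 or 4 or odor fly 1 (adjusted p up to 0.0541). The other marker lists had at most 1 called gene in each direction, a share of at most 12.5% (all genes, 9.3% higher and 8.87% lower). These were cac for neurons (-0.23 ± 0.06), inaC for photoreceptors (-0.18 ± 0.06), Act88F for muscle (0.76 ± 0.20), and Hml (1.24 ± 0.34) and NimC1 (-0.37 ± 0.10) for hemocytes. They were not called in 7, 10, 3, 5 and 4 of the 12 fits that each left out 1 fly. Cuticle proteins were higher in 1 of 46 (2.17%, against 9.3% of all genes), TwdlT (0.51 ± 0.15), and lower in 5 (10.9%, against 8.87%). The lower ones were led by Cpr67B (log2 difference -1.11 ± 0.22, adjusted p = 0.0118). TwdlT was not called in 8 of those fits, and limma called 0 cuticle genes without odor flies 1 and 6 (unadjusted p under 0.05, 2 higher and 7 lower). Of 31 odorant-binding proteins 2 were higher (6.45%) and 1, Obp57d (-0.46 ± 0.10), was lower (3.23%), against 9.3% and 8.87% of all genes. Obp57d shares reads with Cpr57A. In that fit limma called 0 of these 31 (unadjusted p under 0.05, 3 higher and 1 lower).

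Sorbose flies were then compared with sucrose flies, which had a sweet sugar with food value, to set the 2 sugars side by side. The same sorbose flies enter both comparisons. The fit took its spread over all 18 flies, so that its intervals also reflect the more variable odor flies. A fit of only the 12 sorbose and sucrose flies called 8 genes, and the values below are from the fit of 18. Of the same 11043 genes 1 was called (0.00906%), and 1097 had an unadjusted p under 0.05. It was CG5966, with 46.1 RPKM in sorbose flies (16.6 to 103), against 1.74 RPKM in sucrose flies (0.849 to 3.31) and no overlap (log2 difference 4.27, 95% interval 3.33 to 5.20, adjusted p = 0.000288). Genes of insulin and TOR signalling and autophagy were among those not called. Thor had 281 RPKM in sorbose flies (239 to 306), against 282 RPKM in sucrose flies (204 to 379) (log2 difference 0.00, 95% interval -0.67 to 0.68, adjusted p = 0.999), Atg8a differed by -0.01 (95% interval -0.33 to 0.30) and Sesn by 0.03 (95% interval -0.20 to 0.27). For Bcat the interval was wide (log2 difference 0.58, 95% interval -0.79 to 1.96, adjusted p = 0.844). Other genes had larger differences that did not pass the test. Pepck1 had 774 RPKM in sorbose flies (581 to 1344), against 91.2 RPKM in sucrose flies (9.82 to 443) (log2 difference 3.50, 95% interval 2.13 to 4.87, adjusted p = 0.0832). The nucleolar gene Fib had 6.95 RPKM in sorbose flies (5.28 to 8.56), against 14.4 RPKM in sucrose flies (8.605 to 21.7) (log2 difference -0.99, 95% interval -1.40 to -0.57, adjusted p = 0.0832), and nop5 had 7.28 RPKM in sorbose flies (4.41 to 9.54), against 14.1 RPKM in sucrose flies (7.98 to 18.3) (log2 difference -0.81, 95% interval -1.26 to -0.36, adjusted p = 0.156). ImpL2 had 31.2 RPKM in sorbose flies (13.7 to 33.96), against 10.04 RPKM in sucrose flies (6.69 to 13.2) (log2 difference 1.30, 95% interval 0.71 to 1.90, adjusted p = 0.0992). The satiety gene fit, which is made in the fat body after feeding on protein, had 17.1 RPKM in sorbose flies (5.88 to 35.4), against 138 RPKM in sucrose flies (39.7 to 247) (log2 difference -2.83, 95% interval -4.43 to -1.22, adjusted p = 0.164). Odor flies had 0.658, 3.21 and 19.0 RPKM of fit, and the difference of sorbose flies from them was not called (log2 difference 2.01 ± 0.81, adjusted p = 0.0992) except without odor fly 5 (adjusted p up to 0.0341).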

How the data were processed

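The authors sequenced poly(A) RNA of single fly heads from a kit that keeps no strand on an Illumina instrument. Their notes name CASAVA 1.8.2, TopHat2 2.0.13 and the build dm6, and the methods name Ensembl gene models, while another passage names an older aligner and build. They deposited a table of RPKM for 17559 genes in 18 flies, from which 98.9% of values gave whole reads (tolerance 0.02). Groups came from the labels. Gene names and coordinates came from a dm6 annotation for 17253 IDs, and 32 of the other 306 were named from the study's supplement.

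Genes with a mean of at least 0.5 RPKM over the 12 flies were fitted as log2(RPKM + 0.5) with limma 3.58.1 (trend) in R 4.3.3, without a block, with Benjamini-Hochberg adjustment over all 11043 genes. This scale understates the change of genes near or below the pseudocount. Sorbose and sucrose were compared in a fit of 18 flies with the same genes. Scripts were tested on simulated data. The 533 pairs of genes with overlapping exons and a correlation of at least 0.95 over the 12 flies were called sharing reads, and 241 called genes are in such pairs. Replicates were separate flies, and none of the pairs of libraries agreed within counting noise.

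Members and lists were chosen with earlier results of these data known. Named were the 10 largest rises and falls among called genes outside those pairs whose 6 sorbose flies all lay on one side of the odor mean. Also named were the called member with the largest rise and fall of each list, and fixed names. Of the fixed names, Gr64f was below the filter and InR was not matched by name. Other genes were named after their values were seen, namely Hn, Ahcy, Shmt, G6P, PCB, foxo, REPTOR, Sesn, Atg8a, NHP2, hoip, Nop60B, Fib, Hsp68, Prat2, Gart, Paics, CG11089, aay, Treh, CG6126, Nmdmc, Hpd, hgo, Faa, v, Akt, chico, Prat, Adsl, Pfas, CG11899, CG6287, Hsp60A, CCT2, TotA, TotM, CrebB, amn, Fmr1, CrebA and Nplp2. Alternatives changed the pseudocount, filter, scaling, tool, weights, threshold and flies.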

Additional observations from a re-analysis of the deposited data

Results flagged for a closer look

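The gap between the highest or lowest fly and the rest exceeded Dixon's 95% limit in 9 of 274 groups of 6 flies over 136 genes, and chance gives about 13.7. Spn88Eb was 29.0 RPKM in sorbose fly 3 and 3.26 to 5.22 RPKM in the other sorbose flies, and foxo was 12.1 RPKM in sorbose fly 1 and 19.6 to 23.3 RPKM in the others. In sorbose flies LpR1 was 16.2 RPKM in fly 3 (others 18.5 to 20 RPKM), mTor was 5.37 RPKM in fly 2 (others 6.13 to 6.57 RPKM) and amn was 0.547 RPKM in fly 5 (others 0.485 to 0.493 RPKM). In odor flies Nop60B was 3.58 RPKM in fly 5 (others 2.33 to 2.63 RPKM) and Gr43a was 1.60 RPKM in fly 2 (others 1.83 to 1.98 RPKM). DptB was 139 RPKM in odor fly 4 and 3.15 to 8.2 RPKM in the other odor flies. Prat2 was 743 RPKM in odor fly 2 and 290 to 368 RPKM in the other odor flies.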

How the results depend on the processing

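The 2006 genes called against odor became 484 with the replicate number as a block, 3315 with sample quality weights, 181 with a log2 difference of at least 1, 199 at an adjusted p under 0.01 and 395 without odor replicates 1 and 6, the last chosen after seeing the data. Leaving out 1 fly gave 918 to 2507. The other alternatives (pseudocount, filter, scaling, voom, all 18 flies) gave 1501 to 2710. The labels' replicate numbers did not pair the flies, since the deviations of same-numbered flies correlated between -0.27 and 0.19 and no sorbose fly matched the odor fly of its own number best. The 1 gene called against sucrose became 6 with quantile normalization, 8 with only the 12 flies of the 2 groups, 305 with sample quality weights and 2 with voom. Leaving out 1 fly gave 1 to 33, the most without sorbose fly 2, and 6 without sucrose fly 3. The difference in library size was between -9.54 and -5.67 M reads with 1 fly left out. Of 117 named called genes 0 reversed in any alternative. Not called were 12 with quantile normalization, 19 with no filter, 55 with the replicate block and 73 without odor replicates 1 and 6. At an adjusted p under 0.01, 89 were not called, and 60 with a log2 difference of at least 1. In at least 1 fit that left out 1 fly, 45 were not called. The number was 1 to 4 with another pseudocount, a filter of 5 RPKM, median-of-ratios scaling, all 18 flies, weights or voom. Of 19 named genes that were not called, 5 were called in at least 1 alternative. In the fits that left out 1 fly, the 11 remaining sorbose and odor flies limit what a lost call can show.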

Other observations

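Genes that build purines and serine were lower in sorbose flies, and both lists were put together after their values had been seen, so that no test of either list is given. De novo purine synthesis adds carbon and nitrogen groups, some of them carried by folate, to a sugar phosphate until a purine base is complete. Of its 7 genes 6 were called lower (8.87% among all genes) and did not overlap between groups (3.53% among all genes), with a median log2 difference of -1.89, against 0.01 over all genes, and without odor flies 1 and 6 there were 3 (1.68% among all genes). The list mean relative to the odor flies was -2.25 to -0.71 in sorbose flies and -0.43 to 0.53 in odor flies. Prat2, a form of the amidotransferase that catalyses the committed step, had 53.1, 92.3 and 278 RPKM in sorbose flies (lowest, median and highest), against 289.7, 353 and 743 RPKM in odor flies (log2 difference -1.89 ± 0.37, adjusted p = 0.0112). The other form, Prat, had 3.32, 3.44 and 3.68 RPKM in sorbose flies, against 2.95, 3.58 and 4.03 RPKM in odor flies (log2 difference -0.02 ± 0.07, adjusted p = 0.835). Gart, which carries several steps of the pathway in one protein, had 47.2, 101 and 152 RPKM in sorbose flies, against 223, 325 and 542 RPKM in odor flies, with no overlap (log2 difference -1.90 ± 0.31, adjusted p = 0.00605). Paics had 109, 244 and 456 RPKM in sorbose flies, against 508, 709 and 1242 RPKM in odor flies (log2 difference -1.64 ± 0.32, adjusted p = 0.0108). The enzyme of the last steps, CG11089, had a log2 difference of -2.18 ± 0.34, Pfas had -2.25 ± 0.48, with reads shared with CG31643, and Adsl had -0.96 ± 0.20. None of these 6 lost its call when 1 fly was left out.

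Serine synthesis from an intermediate of glycolysis takes 3 enzymes. In this list, chosen by its values, all 3 were called lower (8.87% among all genes). None of the 3 overlapped between groups (3.53% among all genes). They were CG6287 for the first step (-0.90 ± 0.18), CG11899 for the second (-1.24 ± 0.19) and the phosphatase aay for the last, with 86.3, 146 and 273 RPKM in sorbose flies, against 379, 734 and 906 RPKM in odor flies (log2 difference -2.06 ± 0.31, adjusted p = 0.0055). The list mean was -1.73 to -0.82 in sorbose flies and -0.43 to 0.44 in odor flies. Without odor flies 1 and 6, 2 of the 3 were called lower (1.68% among all genes). Sorbose fly 1 was the sorbose fly closest to the odor flies in both lists. Against sucrose flies the differences were not called, with 92.3 RPKM in sorbose flies (53.1 to 278), against 102 RPKM in sucrose flies (85.5 to 129.6) for Prat2 (log2 difference -0.04, 95% interval -0.72 to 0.64, adjusted p = 0.983) and 146 RPKM in sorbose flies (86.3 to 273), against 148 RPKM in sucrose flies (92.4 to 174) for aay (log2 difference 0.13, 95% interval -0.47 to 0.73, adjusted p = 0.931).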
